A study of Mus musculus with 20 samples.

Results

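The genes described here are 10 that carry, reduce, store or sense iron in the brain: Slc40a1, Tfrc, Slc11a2, Cp, Heph, Ireb2, Aco1, Fth1, Steap2 and Steap3. Their transcripts were measured in hypothalamic tissue from mice made obese by diet and given celastrol, a plant-derived triterpene, or its vehicle. For each gene the probe set was chosen by brightness, as the one with the highest mean log2 intensity over the 20 arrays among probe sets that name a single gene, and that measured brightness is the value the choice rests on. All 10 genes had such a probe set, out of 18704 genes with one, and all 10 were bright enough to be among the 14129 genes tested. Steap2 alone had 2 probe sets to choose from. The one used had a mean log2 intensity of 10.02. The other, at 6.61, lay below the intensity floor of 7.04.

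The mice were male C57BL/6J animals fed a diet with 45% fat from 4 weeks of age for 16 weeks. The vehicle, DMSO at 25 µl per day, was injected intraperitoneally and sampled at 6 h, 1 day and 4 days, with 3 arrays at each time. Celastrol was injected by the same route and sampled at the same times, with 4 arrays each at 6 h and at 1 day and 3 arrays at 4 days. The labels give 25 µl of DMSO per day for every group, and an injected volume of 100 µl for the celastrol groups only. The celastrol dose, 250 µg/kg, is written beside the 6 h time only. Every group was obese and injected, and a lean or uninjected group was not analysed here. The labels call the arrays biological replicates but do not say whether each came from its own animal. The p-values therefore measure the spread between these arrays. No 2 arrays held the same values, and array medians ran from 8.596 to 8.653 on the log2 scale. Of 15 hypothalamic marker genes listed for the tissue check, 14 had a probe set that names a single gene, and all 14 lay above the floor. A pair of vehicle arrays, replicate 3 at 6 h and replicate 3 at 1 day, stood apart from the rest on the first component of the residuals, with scores of 15.2 and 14.6 against -9.63 to 8.30 for the other arrays.

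A main route of iron into many brain cells is uptake of transferrin-bound iron through the transferrin receptor. On this route iron is reduced by STEAP family enzymes in the endosome and crosses into the cytosol through the divalent metal transporter. Iron leaves cells through ferroportin, which works together with a copper-containing ferroxidase, and what is not used is held in ferritin. The iron regulatory proteins bind iron-responsive elements in several of these transcripts when cellular iron is low, which stabilises the transferrin receptor message and blocks translation of ferritin and ferroportin.

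Ireb2 and Aco1 encode both iron regulatory proteins, and their promoters are shown because the transcript of one differed between times in celastrol-treated mice and that of the other did not pass the test in any comparison. The bases are the 250 before the listed start, from RefSeq (GRCm38.p6), written 5′ to 3′ along the gene, with the GC box GGGCGG on either strand in capitals. The Ireb2 stretch is chr9:54863505-54863754 and the Aco1 stretch is chr4:40143015-40143264, both on the plus strand.
Ireb2: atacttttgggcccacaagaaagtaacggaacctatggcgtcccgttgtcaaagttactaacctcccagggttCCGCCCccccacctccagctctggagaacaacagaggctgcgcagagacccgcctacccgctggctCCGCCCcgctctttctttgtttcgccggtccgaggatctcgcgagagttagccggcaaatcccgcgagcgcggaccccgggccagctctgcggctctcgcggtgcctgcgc
Aco1: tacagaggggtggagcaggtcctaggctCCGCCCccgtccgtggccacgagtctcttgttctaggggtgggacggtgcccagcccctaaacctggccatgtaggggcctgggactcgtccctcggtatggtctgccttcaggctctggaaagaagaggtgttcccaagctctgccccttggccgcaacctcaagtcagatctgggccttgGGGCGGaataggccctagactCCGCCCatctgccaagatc
Both stretches are rich in G and C, at 63.6% for Ireb2 and 62.8% for Aco1, but Ireb2 holds 24 CpG pairs and Aco1 holds 10. The Ireb2 stretch has 2 GC boxes, both on the minus strand, and the Aco1 stretch has 3. A GC box was found in 32.7% of the 32851 RefSeq promoter stretches of the same length. None of the other letters searched on both strands occurs in either stretch: TATAA, found in 22.8% of all stretches, the hypoxia response core ACGTG in 16.6%, the metal response core TGCGCNC in 12.5% and the antioxidant response core TGACNNNGC in 10.2%. A match describes the letters only. RefSeq entries were matched for 7 of the 10 genes, all except Slc40a1, Slc11a2 and Heph.

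Celastrol was set against vehicle at each time, which is the comparison the study was designed for, and over the mean of the 3 times. Slc40a1 was the 1 gene of the 10 past an adjusted p of 0.05, and it was lower with celastrol over the mean of the 3 times, by limma's moderated test with Benjamini-Hochberg adjustment over all genes tested. None of the 10 passed at 6 h, where 0% of all genes passed, at 1 day, where 0.425% passed, or at 4 days, where 0.0637% passed. Over the mean of the times 0.573% of all genes passed. The 10 genes were chosen with earlier results of these arrays known, so calls among them are not independent evidence. An unadjusted p under 0.05 was found for 1 of the 10 genes at 6 h, 3 at 1 day, 1 at 4 days and 3 over the mean of the times, beside 7.55%, 8.19%, 6.53% and 8.78% of all genes (1067 genes at 6 h). The 10 genes did not move one way: 2 were higher with celastrol at 6 h, 7 at 1 day, 7 at 4 days and 5 over the mean of the times. Their median log2 difference was -0.07 at 6 h, 0.02 at 1 day, 0.05 at 4 days and 0.01 over the mean of the times, beside -0.01, 0.01, 0.01 and -0.000069 for all genes tested.

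Slc40a1 encodes ferroportin, the only known exporter of iron from mammalian cells. Its 3 vehicle arrays at 6 h read 7.76, 7.52 and 7.83 in log2 intensity, and the 4 celastrol arrays read 7.58, 7.58, 7.39 and 7.47. At 1 day the vehicle arrays read 7.64, 7.87 and 7.99, and the celastrol arrays read 7.29, 7.44, 7.52 and 7.36. At 4 days the vehicle arrays read 7.97, 7.77 and 7.91, and the celastrol arrays read 7.73, 7.26 and 7.31. The groups overlapped at 6 h and were apart at 1 day and at 4 days, where celastrol replicate 1 lay just under the lowest vehicle array. All 11 celastrol arrays lay below the vehicle mean of their own time, and 8 lay below every vehicle array of any time.

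The group means of Slc40a1 were 7.70 ± 0.16 (SD, n = 3) for vehicle and 7.51 ± 0.092 (SD, n = 4) for celastrol at 6 h, 7.83 ± 0.18 (SD, n = 3) and 7.40 ± 0.10 (SD, n = 4) at 1 day, and 7.88 ± 0.10 (SD, n = 3) and 7.43 ± 0.26 (SD, n = 3) at 4 days. Averaged over the times, celastrol lay 0.36 ± 0.062 (SE) log2 units lower, at a log2 difference of -0.36 with a 95% interval of -0.49 to -0.23, or 1.28-fold lower (adjusted p = 0.0081 by limma). The log2 difference was -0.20 ± 0.104 (SE) at 6 h (adjusted p = 0.674 by limma), -0.43 ± 0.104 (SE) at 1 day (adjusted p = 0.0918) and -0.45 ± 0.111 (SE) at 4 days (adjusted p = 0.251), so no single time passed. The later times did not differ from 6 h past the threshold either, with a difference of differences of -0.24 ± 0.129 (SE; adjusted p = 0.47 by limma). Without celastrol replicate 1 at 4 days the adjusted p was 0.0251 at 1 day and 0.024 at 4 days, where the log2 difference became -0.60. In the 20 fits leaving out 1 array each, the adjusted p at 1 day ran from 0.0251 to 0.367 by limma. At 4 days it ran from 0.024 to 0.918, and at each of these times only this 1 fit passed. Without both vehicle arrays that stood apart the averaged difference was -0.31 (adjusted p = 0.0473 by limma).

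In the order of its means, the 3 celastrol groups of Slc40a1 were the lowest and the 3 vehicle groups the highest, and each group overlapped its neighbours in that order. The mean intensity of its probe set was at the 34.1th percentile of all probe sets on the array. Its residual spread was wide, at the 94.2th percentile of all genes tested, and the range of its group means was at the 99.3th. In this bulk tissue, fewer cells that carry a transcript and less of it per cell cannot be told apart.

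**Figure D1:**
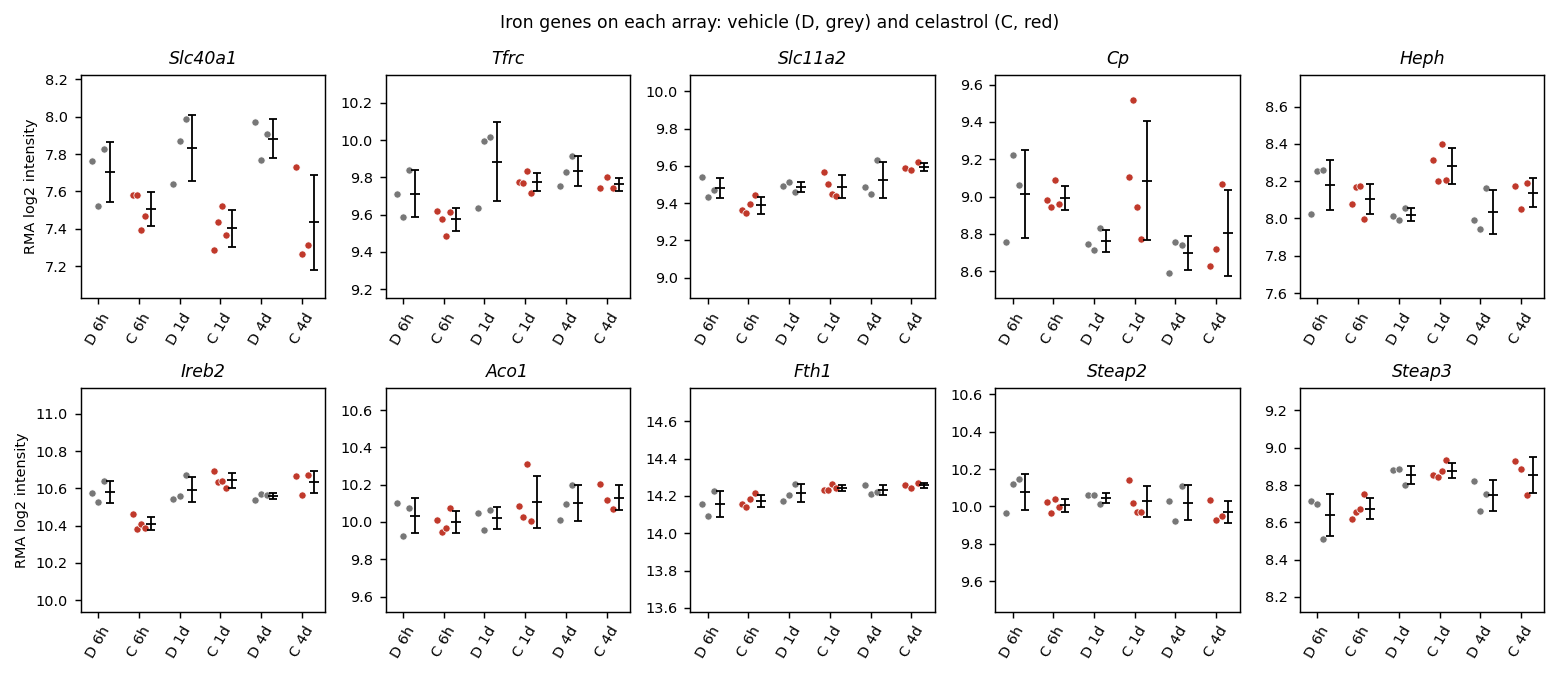
Log2 intensity of each of the 10 genes by time (vehicle D in grey, celastrol C in red), 1 point per array, with the black mark giving the group mean ± SD; each vertical axis spans the same number of log2 units. Slc40a1 is lower in the celastrol groups at 1 day and 4 days without overlap, and Ireb2 is lowest in the celastrol group at 6 h.

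Markers of other cells moved beside Slc40a1, and their part in its difference was not tested. Of 11 oligodendrocyte markers tested, myelin-forming cells being rich in iron, 8 were lower with celastrol at 1 day, 10 at 4 days and 9 over the mean of the times, while 10 were higher at 6 h. Their median log2 difference was -0.11 at 1 day and -0.15 at 4 days, and 1 marker passed the test, Gjc3, a gap junction gene, at -0.30 at 1 day (adjusted p = 0.0192 by limma) and -0.33 at 4 days (adjusted p = 0.0413). The myelin gene Opalin had the next smallest p at 1 day, at -0.59 ± 0.181 (SE; adjusted p = 0.273 by limma). Within vehicle 8 of the 11 markers were higher later than at 6 h, with a median of 0.04, and Gjc3 passed there as higher. Within celastrol 10 were lower later than at 6 h, with a median of -0.09, and 0 passed. The summed linear intensity of the 11 markers ran from 32397 to 34685 in the vehicle arrays at 4 days and from 29676 to 32374 in the celastrol arrays. At 1 day the ranges overlapped, at 30696 to 33851 and 29044 to 32184.

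Single markers of other cells also passed where Slc40a1 was lower, and those named in this paragraph were picked after their values were seen. Of 11 endothelial markers 7 were higher and 4 lower at 1 day, with a median log2 difference of 0.06. Cldn5, a tight junction gene, stood at -0.61 ± 0.103 (SE; adjusted p = 0.00857 by limma) at 1 day and -0.43 averaged (adjusted p = 0.00155). Slc2a1, which encodes the glucose carrier GLUT-1 of brain capillaries, stood at 0.48 ± 0.092 (SE; adjusted p = 0.0205 by limma) at 1 day and 0.32 averaged (adjusted p = 0.0081), and Esam, an adhesion molecule, passed averaged only, at 0.20 (adjusted p = 0.0391). The endothelial markers that passed thus lay on both sides of 0. Of 10 astrocyte markers 7 were lower at 1 day, and Sox9, a transcription factor, passed there at -0.24 (adjusted p = 0.0478 by limma). Of 9 ependymal and tanycyte markers 7 were higher at 1 day, and Dio2, which activates thyroid hormone, passed there at 0.50 (adjusted p = 0.0423 by limma).

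Genes raised by glucocorticoids also differed between treatments. All 13 tested were higher with celastrol at 1 day, with a median log2 difference of 0.61, and 8 of them passed the test. Sgk1, a kinase gene, stood at 1.16 ± 0.125 (SE; adjusted p = 0.000236 by limma) and Nfkbia, an inhibitor of NF-kB, at 0.93 ± 0.120 (SE; adjusted p = 0.000986). At 6 h 11 of the 13 were higher with celastrol, with a median of 0.07, and 0 passed. Within vehicle all 13 were lower later than at 6 h, with a median of -0.42, and 3 passed. Within celastrol 8 were higher and 5 lower later, with a median of 0.01, and 0 passed. This list was drawn up with earlier results of these arrays known, so its direction is not independent evidence. Of the red cell genes, 2 could be tested, Alas2 and Slc4a1. Both were higher with celastrol at 6 h and 1 day, with medians of 0.13 and 0.17, and both were lower at 4 days, with a median of -0.20. Neither passed. Of 4 pituitary genes tested, 3 were higher at 6 h (median 0.06), 4 were lower at 1 day (median -0.27) and 3 were lower at 4 days (median -0.17, the lowest at -1.57), and none passed. At 1 day they included Gh at -0.57 ± 0.256 (SE; adjusted p = 0.565 by limma) and Chgb at -0.04. The part of these genes in the iron results was not tested.

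Ferroportin works with a ferroxidase, and both ferroxidases measured read higher with celastrol at 1 day without passing the test. Heph encodes hephaestin, the membrane-bound ferroxidase. At 1 day its vehicle arrays read 8.01, 7.99 and 8.06 in log2 intensity and its celastrol arrays read 8.31, 8.20, 8.40 and 8.20, so every celastrol array lay above every vehicle array. The log2 difference was 0.26 ± 0.069 (SE), with a 95% interval of 0.12 to 0.40 and an adjusted p of 0.143 by limma, or 0.0397 when arrays were weighted by their quality. At 6 h it was -0.08 ± 0.069 (SE; adjusted p = 0.78 by limma), from vehicle arrays at 8.03, 8.25 and 8.26 and celastrol arrays at 8.08, 8.17, 8.17 and 7.999. At 4 days it was 0.11 ± 0.073 (SE; adjusted p = 0.888 by limma), from vehicle arrays at 7.99, 7.94 and 8.17 and celastrol arrays at 8.17, 8.05 and 8.19. The groups overlapped at 6 h and at 4 days. Averaged over the times the difference was 0.10 ± 0.041 (SE; adjusted p = 0.486 by limma).

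Cp encodes ceruloplasmin, the ferroxidase of plasma that astrocytes also carry in a membrane-anchored form. At 1 day its vehicle arrays read 8.74, 8.71 and 8.83 and its celastrol arrays read 9.11, 9.52, 8.95 and 8.77, 1 of them within the vehicle range. The log2 difference at 1 day was 0.32 ± 0.135 (SE), with a 95% interval of 0.04 to 0.61 (adjusted p = 0.514 by limma). It was -0.02 ± 0.135 (SE; adjusted p = 0.978 by limma) at 6 h, from vehicle arrays at 8.76, 9.22 and 9.06 and celastrol arrays at 8.98, 8.94, 9.09 and 8.96. At 4 days it was 0.11 ± 0.144 (SE; adjusted p = 0.957 by limma), from vehicle arrays at 8.59, 8.75 and 8.74 and celastrol arrays at 8.63, 8.72 and 9.07. Celastrol replicate 2 at 1 day was the highest array of Cp in the series, and the gene varied more between arrays of a group than 98.7% of genes tested.

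Groups that do not overlap between celastrol and vehicle also occur across the rest of the array. At 6 h the groups were apart in 6.35% of all genes tested, and in 1 of the 10, Ireb2, which read lower with celastrol. At 1 day they were apart in 7.81% of all genes and in 2 of the 10, Slc40a1 and Heph. At 4 days, where both groups have 3 arrays, they were apart in 14.4% of all genes and in 1 of the 10, Slc40a1.

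The uptake genes showed small differences between celastrol and vehicle. Tfrc encodes the transferrin receptor, which brings transferrin-bound iron into cells. At 6 h its vehicle arrays read 9.71, 9.59 and 9.84 and its celastrol arrays read 9.62, 9.58, 9.49 and 9.61. At 1 day the vehicle arrays read 9.64, 9.995 and 10.01 and the celastrol arrays read 9.78, 9.77, 9.84 and 9.72, and at 4 days they read 9.75, 9.83 and 9.91 against 9.74, 9.80 and 9.74. The groups overlapped at every time, although all 11 celastrol arrays lay below the vehicle mean of their own time. The averaged log2 difference was -0.11 ± 0.044 (SE), with a 95% interval of -0.20 to -0.01, and did not pass the test (adjusted p = 0.486 by limma).

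Slc11a2 encodes the divalent metal transporter DMT1, which moves ferrous iron out of the endosome. Its vehicle arrays read 9.54, 9.43 and 9.47 at 6 h, 9.49, 9.51 and 9.46 at 1 day, and 9.49, 9.45 and 9.63 at 4 days. Its celastrol arrays read 9.36, 9.35, 9.40 and 9.45 at 6 h, 9.57, 9.50, 9.45 and 9.44 at 1 day, and 9.59, 9.58 and 9.62 at 4 days. The groups overlapped at each time, and the log2 difference went from -0.09 ± 0.047 (SE) at 6 h through 0.0015 at 1 day to 0.07 ± 0.050 (SE) at 4 days. None of these passed (adjusted p = 0.665, 0.995 and 0.885 by limma).

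Steap2 and Steap3 encode metalloreductases that turn ferric into ferrous iron, Steap3 being the endosomal enzyme best known from red cell precursors. Steap3 vehicle arrays read 8.71, 8.70 and 8.51 at 6 h, 8.88, 8.88 and 8.80 at 1 day, and 8.82, 8.66 and 8.75 at 4 days. The celastrol arrays of Steap3 read 8.62, 8.66, 8.67 and 8.75 at 6 h, 8.86, 8.84, 8.87 and 8.93 at 1 day, and 8.93, 8.88 and 8.74 at 4 days. Treatment groups of Steap3 overlapped at each time, with log2 differences of 0.03, 0.02 and 0.11. Steap2 vehicle arrays lay between 9.92 and 10.15 and its celastrol arrays between 9.93 and 10.14 over the series. The log2 differences of Steap2 were -0.07 at 6 h, -0.02 at 1 day and -0.05 at 4 days, and the averaged 95% interval was -0.11 to 0.02.

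Ireb2 encodes iron regulatory protein 2, whose level in cells is set mainly by its degradation when iron is plentiful. Its transcript was low in the celastrol arrays at 6 h. The vehicle arrays at 6 h read 10.57, 10.53 and 10.64 in log2 intensity and the celastrol arrays read 10.46, 10.38, 10.41 and 10.39. At 1 day the vehicle arrays read 10.55, 10.56 and 10.67 and the celastrol arrays read 10.69, 10.63, 10.64 and 10.60. At 4 days the vehicle arrays read 10.54, 10.57 and 10.56 and the celastrol arrays read 10.66, 10.57 and 10.67. The celastrol group at 6 h lay below all other groups without overlapping its neighbour, and the other 5 groups overlapped one another in the order of their means.

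Against vehicle, Ireb2 stood at a log2 difference of -0.17 ± 0.043 (SE) at 6 h, with a 95% interval of -0.26 to -0.08, and this did not pass over all genes (adjusted p = 0.461 by limma). It was 0.05 ± 0.043 (SE) at 1 day (adjusted p = 0.813 by limma) and 0.07 ± 0.046 (SE) at 4 days (adjusted p = 0.856). The difference between the later times and 6 h in the effect of celastrol was 0.23 ± 0.053 (SE), with an adjusted p of 0.206 by limma, so a change of the effect with time was not shown for Ireb2. In the same contrast Heph stood at 0.26 ± 0.085 (SE; adjusted p = 0.348 by limma), Cp at 0.24 ± 0.167 (SE) and Slc11a2 at 0.13 ± 0.058 (SE). Aco1 stood at 0.09, Tfrc at 0.05, Steap2 at 0.04, Steap3 at 0.03 and Fth1 at 0.01. Of the 10 genes 0 passed in this contrast, where 0.0142% of all genes did, and 0 passed between the effects at 4 days and 1 day, where 0.00708% did. Between 4 days and 1 day the effect on Cp differed by -0.21 ± 0.197 (SE), on Heph by -0.15 ± 0.101 (SE), on Steap3 by 0.09 and on Slc11a2 by 0.07. For the other 6 genes that difference lay between -0.06 for Aco1 and 0.04 for Tfrc, and the adjusted p was 1 for all 10.

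Aco1 encodes cytosolic aconitase, which becomes iron regulatory protein 1 when it loses its iron-sulfur cluster. Its vehicle arrays read 10.10, 9.93 and 10.08 at 6 h, 10.05, 9.96 and 10.07 at 1 day, and 10.01, 10.10 and 10.20 at 4 days. Its celastrol arrays read 10.01, 9.94, 9.97 and 10.08 at 6 h, 10.08, 10.03, 10.31 and 10.01 at 1 day, and 10.20, 10.12 and 10.07 at 4 days. Groups overlapped at each time, and the averaged log2 difference was 0.03 ± 0.040 (SE; adjusted p = 0.926 by limma).

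Fth1 encodes the ferritin heavy chain, which oxidises iron for storage, and had the smallest residual spread of the 10. It lay between 14.09 and 14.27 on all 20 arrays, with vehicle means of 14.16 at 6 h, 14.21 at 1 day and 14.23 at 4 days and celastrol means of 14.17, 14.24 and 14.26. Its log2 differences were 0.02, 0.03 and 0.02, and the averaged 95% interval ran from -0.02 to 0.07. Its mean intensity was at the 99.8th percentile of all probe sets, and how this probe set responds to a change at that intensity was not tested, so the interval describes the signal only. Its residual spread was narrower than that of all but 2.29% of genes tested.

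**Figure D2:**
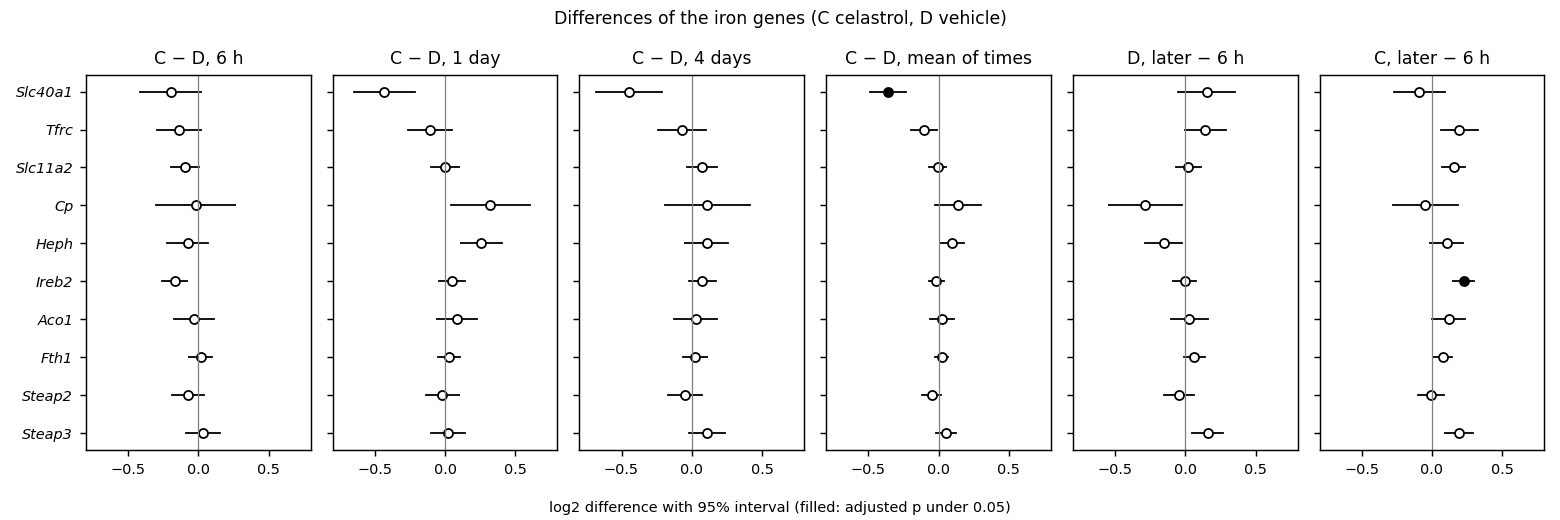
Log2 difference of each of the 10 genes with its 95% interval, for celastrol minus vehicle at 6 h, 1 day, 4 days and averaged and for the later times minus 6 h within each treatment; filled points have an adjusted p under 0.05. The filled points are Slc40a1 averaged over the times, at -0.36, and Ireb2 between times within celastrol, at 0.23.

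Within the celastrol arrays, the mean of 1 day and 4 days was set against 6 h, and the same was done within the vehicle arrays, which measures how the genes vary over time in each treatment. With celastrol, Ireb2 rose from 10.41 ± 0.037 (SD, n = 4) at 6 h to 10.64 ± 0.039 (SD, n = 4) at 1 day and 10.63 ± 0.058 (SD, n = 3) at 4 days. All 7 later celastrol arrays lay above all 4 arrays at 6 h, and the log2 difference was 0.23 ± 0.035 (SE), or 1.17-fold, with a 95% interval of 0.15 to 0.30 (adjusted p = 0.0102 by limma). It was the 1 gene of the 10 past the threshold in this contrast, where 0.849% of all genes passed. Leaving out celastrol replicate 2 at 6 h took the adjusted p to 0.0521. With vehicle the log2 difference of Ireb2 was -0.0048 ± 0.040 (SE), with a 95% interval of -0.09 to 0.08, and 0 of the 10 passed beside 0.467% of all genes.

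Steap3, Slc11a2 and Tfrc stood next in the celastrol arrays. Steap3 was 0.19 ± 0.047 (SE) log2 units higher later than at 6 h (adjusted p = 0.0536 by limma), and in the vehicle arrays 0.16 ± 0.053 (SE) higher (adjusted p = 0.206). Slc11a2 was 0.15 ± 0.039 (SE) higher with celastrol (adjusted p = 0.0536 by limma) and 0.02 ± 0.043 (SE) with vehicle (adjusted p = 0.883). Tfrc was 0.19 ± 0.062 (SE) higher with celastrol (adjusted p = 0.0936 by limma) and 0.14 ± 0.070 (SE) with vehicle (adjusted p = 0.409). Without both vehicle arrays that stood apart all 3 passed, at adjusted p = 0.0237 for Steap3, 0.0371 for Slc11a2 and 0.0481 for Tfrc by limma. In that setting 750 of all genes passed in this contrast, against 120 with all arrays. Vehicle arrays enter the contrast within celastrol only through the shared estimate of the spread. Heph was 0.10 ± 0.057 (SE) higher later with celastrol (adjusted p = 0.285 by limma) and stood at -0.15 ± 0.064 (SE) with vehicle (adjusted p = 0.321). Cp stood at -0.05 ± 0.111 (SE) with celastrol (adjusted p = 0.831 by limma) and -0.28 ± 0.125 (SE) with vehicle (adjusted p = 0.35). Both ferroxidases thus read lower later in the vehicle arrays, without passing. For Slc40a1 the values were -0.09 with celastrol and 0.15 with vehicle, for Aco1 0.12 and 0.03, and for Steap2 -0.0087 and -0.05, none of which passed. An unadjusted p under 0.05 was found for 6 of the 10 within celastrol, beside 21.7% of all genes, and for 3 within vehicle, beside 12.4%. In the later celastrol arrays 7 of the 10 genes were higher than at 6 h, with a median log2 difference of 0.11 beside 0.02 for all genes, and in the vehicle arrays 6 of the 10 were, with a median of 0.03 beside -0.0022.

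The later and early celastrol arrays did not overlap in 4.7% of all genes tested and in 3 of the 10, Tfrc, Ireb2 and Fth1, each higher later. In the vehicle arrays they did not overlap in 5.28% of all genes and in 0 of the 10. For Fth1 the difference within celastrol was 0.08 ± 0.032 (SE; adjusted p = 0.18 by limma) and within vehicle 0.06 ± 0.035 (SE; adjusted p = 0.472). Of all genes past the threshold within celastrol, 89 were higher and 31 lower later, and when arrays were centred on their medians 15 were higher and 27 lower. Quantile normalizing again gave 34 and 42. The log2 difference of Ireb2 stayed between 0.19 and 0.23 and past the threshold in the 7 other settings tried, these scalings included.

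Between 1 day and 4 days none of the iron genes passed the test in either treatment. With vehicle 0 of the 10 passed, beside 0% of all genes tested, 1041 of which had an unadjusted p under 0.05 against 0 of the 10. With celastrol 0 of the 10 passed, beside 0.0425% of all genes, and 1 of the 10 had an unadjusted p under 0.05, beside 12.1%. Within celastrol, Cp was 0.28 log2 units lower at 4 days than at 1 day, at a log2 difference of -0.28 ± 0.135 (SE; adjusted p = 0.414 by limma). Slc11a2 was 0.11 ± 0.047 (SE) higher (adjusted p = 0.379 by limma), and Heph stood at -0.14 ± 0.069 (SE; adjusted p = 0.423). The other 7 genes lay between -0.06 for Steap2 and 0.03 for Slc40a1. Within vehicle the differences ran from -0.11 for Steap3 to 0.08 for Aco1, with Cp at -0.07, Tfrc at -0.05, Slc40a1 at 0.05 and the other genes between -0.03 and 0.03.

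Of the wider iron genes, 83 were listed in 6 groups and 71 could be tested. With celastrol against vehicle, 0 of the 71 passed by limma at 6 h, 1 day, 4 days or over the mean of the times, and 2, 5, 5 and 7 had an unadjusted p under 0.05, which is near or below the shares of all genes given above for these comparisons. At 1 day 41 were higher and 30 lower, with a median log2 difference of 0.01, beside 0.01 for all genes tested. Among 14 further genes of iron uptake and release, 8 were higher at 1 day. Lcn2, the siderophore-binding lipocalin that is also an acute-phase protein, had the smallest p of this group at 1 day, at 1.61 ± 0.562 (SE; adjusted p = 0.379 by limma) at 1 day, 2.36 ± 0.601 (SE; adjusted p = 0.287) at 4 days and 1.29 ± 0.332 (SE; adjusted p = 0.102) averaged. At 6 h it stood at -0.10 ± 0.562 (SE). Its vehicle mean was 7.02 ± 0.14 (SD, n = 3) and its celastrol mean 8.63 ± 0.35 (SD, n = 4) at 1 day, while at 6 h vehicle alone was at 8.14 ± 1.499 (SD, n = 3). Trf, the gene for transferrin, which oligodendrocytes make in brain, stood at -0.11 ± 0.066 (SE; adjusted p = 0.698 by limma) at 1 day.

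In the ferritin group 4 of 6 genes were lower at 1 day. Ncoa4, the receptor that delivers ferritin to the lysosome, stood at -0.12 ± 0.062 (SE; adjusted p = 0.629 by limma), and Pcbp2, an iron chaperone, at -0.04. In the hepcidin and BMP group, which regulates ferroportin at the protein level, 8 of 15 were higher, with Smad1, a BMP signal transducer, at 0.15 ± 0.056 (SE; adjusted p = 0.431 by limma) and Smad6, an inhibitor of that pathway, at -0.14 ± 0.094 (SE). In the group of heme breakdown and transport 6 of 11 were higher at 1 day. Flvcr1, known as a heme exporter, stood at 0.17 ± 0.051 (SE; adjusted p = 0.247 by limma), and Slc48a1, a heme transporter of the lysosome, at -0.07 ± 0.042 (SE).

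Of the heme synthesis genes 7 of 10 were higher at 1 day. Alas2, the erythroid form of the first enzyme of heme synthesis, stood at 0.28 ± 0.105 (SE; adjusted p = 0.431 by limma) at 1 day and at -0.29 ± 0.112 (SE; adjusted p = 0.65) at 4 days, and Abcb6, a porphyrin transporter, at 0.10 ± 0.054 (SE) at 1 day. Of the mitochondrial iron and iron-sulfur genes 10 of 15 were higher at 1 day. Slc25a37, the mitochondrial iron importer mitoferrin 1, stood at 0.17 ± 0.053 (SE; adjusted p = 0.267 by limma), and Fdx1, a ferredoxin, at 0.11 ± 0.081 (SE).

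**Figure D3:**
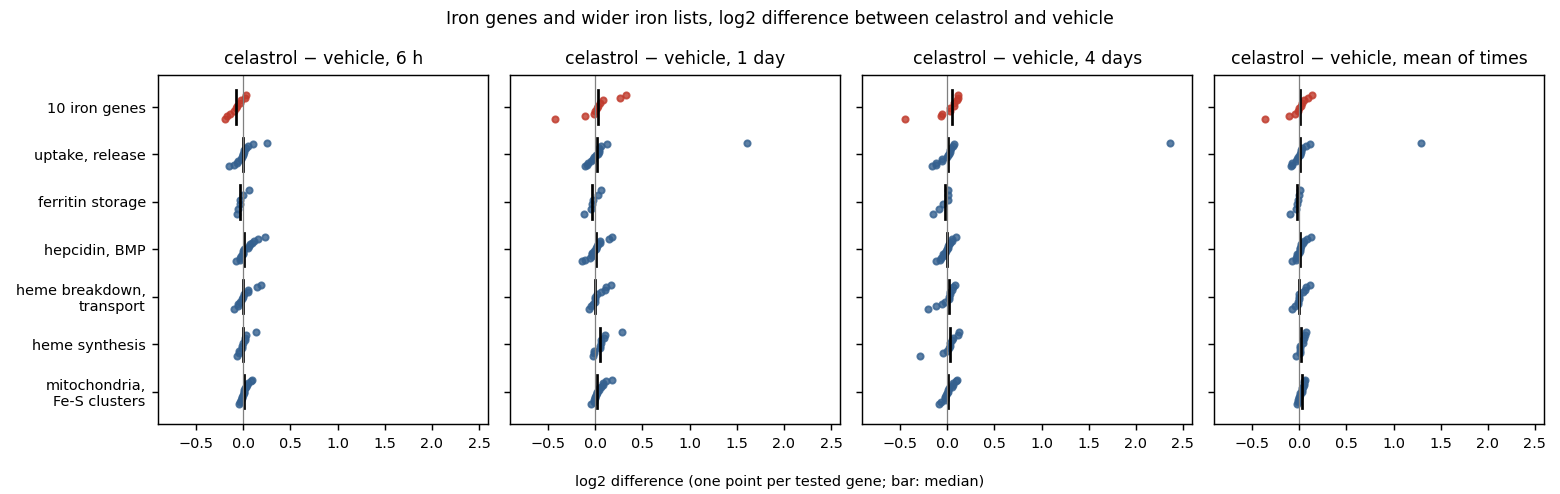
Log2 difference of celastrol minus vehicle for each tested gene of the 10 iron genes and of the 6 wider iron lists, 1 point per gene, with the bar at the list's median. The medians lie near 0, and the far point among the uptake and release genes is Lcn2, at 1.61 at 1 day, 2.36 at 4 days and 1.29 averaged.

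The genes whose log2 values tracked Slc40a1 and Ireb2 most closely over the 20 arrays are given as a description. For Slc40a1 they were Sytl2 (Pearson r = 0.863, Spearman rho = 0.844), Ankrd28 (r = 0.849, rho = 0.802) and Nkx6-2 (r = 0.837, rho = 0.780). Without the 2 arrays farthest from the median of Slc40a1, r was 0.818, 0.785 and 0.799. For Ireb2 they were Chic1 (r = 0.887, rho = 0.881), Pds5a (r = 0.869, rho = 0.902) and Adal (r = 0.868, rho = 0.848), and without the 2 farthest arrays r was 0.869, 0.815 and 0.845. All values come from the same 20 arrays, which share treatment, time and array scaling. After subtracting group means, r was 0.688 for Sytl2 and 0.837 for Chic1. Among the 10 genes, Slc40a1 and Tfrc had r = 0.505 over the arrays and 0.523 after subtracting group means. This pair was not the highest. Over the arrays r ran from -0.494 (Slc40a1 and Cp) to 0.657 (Tfrc and Ireb2) among all pairs of the 10. After subtracting group means it ran from -0.640 (Ireb2 and Steap3) to 0.577 (Tfrc and Fth1).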

How the data were processed

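Total RNA of mouse hypothalamus was hybridised to 1-colour Affymetrix Mouse Gene 1.0 ST arrays, 20 in 6 groups taken from the labels. The deposited log2 intensity values were made by the authors with RMA, per the submitters' processing notes. No genome build was named, and none is used for the arrays. The table held 23492 probe sets, of which 20228 had 1 gene symbol in the platform annotation, 1399 had several and 1865 none. The brightest of a gene's single-symbol probe sets was used, and genes whose mean lay under the 25th percentile of all probe sets (log2 7.04) were left out, leaving 14129. Group means were fitted with limma 3.58.1 (R 4.3.3; lmFit and eBayes, 14 residual degrees of freedom), two-sided, with Benjamini-Hochberg adjustment over all genes tested and a threshold of 0.05. The 10 comparisons were tested separately. The fit was also run on simulated data, and the outcome of that run is not given here. Arrays carry no read depth, so their number limits the precision. The median standard error was 0.060 at 6 h and 1 day and 0.065 at 4 days. The iron genes and lists were chosen with earlier results of these data known. The 10 iron genes were all to be named. Of each wider iron list, genes past the threshold were named or, with none, the 2 with the smallest p at 1 day. Of the cell marker and glucocorticoid lists, the 2 with the smallest p at 1 day were named where the list's median stood over 0.1 from that of all genes, and the endothelial, astrocyte and tanycyte genes named were added after their values were seen. The 3 genes of highest Pearson r were named for each called gene.
Same-numbered arrays were checked for pairing: their deviations from group means correlated between -0.322 and 0.503 over 46 pairs, 14 of them over 0.1. Differently numbered arrays correlated between -0.398 and 0.372 over 120 pairs, 31 of them over 0.1. The medians were -0.017 and -0.00045, so pairing by number across all groups was not seen. The highest value, 0.503, joined both vehicle arrays that stood apart. Pairs within and across treatments were pooled, so a factor shared by number within a single treatment was not tested. Alternatives were no intensity filter, median centring, a further quantile normalization, the mean of a gene's probe sets, array quality weights, a replicate block, each array left out, and, added after seeing the data, both vehicle arrays that stood apart left out.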

Additional observations from a re-analysis of the deposited data

How the results depend on the processing

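Small groups of 3 and 4 arrays limit each single-time comparison. The lower Slc40a1 averaged over the times kept its direction and its call in the 20 fits that left out 1 array each (log2 difference -0.41 to -0.33, adjusted p 0.000468 to 0.0292 by limma) and in 7 other settings (-0.36 to -0.31, adjusted p 0.00746 to 0.0473). Ireb2 later against 6 h within celastrol kept its call in the same 7 settings and in 19 of 20 such fits. A left-out array changes the size of a difference only if its group enters the comparison, and otherwise acts through the shared spread. Slc40a1 and Ireb2 each have 1 probe set, so averaging probe sets does not change their values. Of 2000 differences of the 10 genes with 1 array left out, 1993 stayed on their side of the threshold, 1 lost its call and 6 gained one. Of 700 in the other settings 691 stayed and 9 gained a call. No called difference changed sign. Among uncalled ones 63 and 38 did, the largest being 0.114 and 0.0425 in size. The cause of these moves was not tested.
With array weights, of the 10 iron genes 2 passed at 1 day (Slc40a1 and Heph) and 3 within celastrol later against 6 h, and without both vehicle arrays that stood apart 4 passed there. In the same settings 196, 613 and 750 of all genes passed. Pairing by number across all groups was not seen. With the replicate block 1 passed at 1 day (Heph) and 2 within celastrol (Ireb2 and Steap3), beside 70 and 301 of all genes. With 1 array left out, 0 to 1 passed at 1 day, 0 to 1 at 4 days and 0 to 3 within celastrol. The gain at 1 day and 4 days came without celastrol replicate 1 at 4 days, and the 3 came without vehicle replicate 3 at 6 h and without vehicle replicate 3 at 1 day.
Of all genes, with 1 array left out, 0 to 6 passed at 6 h, 18 to 85 at 1 day, 0 to 20 at 4 days, 39 to 155 averaged, 0 to 5 for the later times minus 6 h in the effect, 1 to 1 for 4 days minus 1 day in the effect, 9 to 90 within vehicle and 8 to 360 within celastrol later against 6 h, 0 to 1 within vehicle and 1 to 7 within celastrol at 4 days against 1 day. Without the filter 2 passed at 4 days, 1 in the later minus 6 h effect, and within celastrol 26 later against 6 h and 15 at 4 days against 1 day. Centring gave 42 within celastrol later against 6 h, and quantile normalizing again gave 76 there, 5 at 4 days and 2 within celastrol at 4 days against 1 day. Array weights gave 196 at 1 day, 20 at 4 days, 1 in the later minus 6 h effect, 22 within vehicle and 613 within celastrol later against 6 h, and 147 within vehicle at 4 days against 1 day. The replicate block gave 0 in the later minus 6 h effect, and within celastrol 301 later against 6 h and 16 at 4 days against 1 day. Without both vehicle arrays that stood apart 39 passed averaged, 1 in the later minus 6 h effect, 1 within vehicle and 750 within celastrol later against 6 h. The shares of calls that were higher also moved with scaling, at 1 day from 51 higher and 9 lower to 38 and 18 when centred and 45 and 19 when quantile normalized again, at 4 days from 6 and 3 to 2 and 3 when quantile normalized again, and within celastrol at 4 days against 1 day from 4 and 2 to 4 and 0 when centred and 2 and 0 when quantile normalized again.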

Other observations

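The other Steap2 probe set, below the intensity floor at a mean log2 of 6.61, gave log2 differences of celastrol minus vehicle of 0.07 at 6 h, 0.0029 at 1 day and -0.06 at 4 days.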
